A study of Mus musculus with 40 samples.

Results

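The comparison asked whether an earlier course of DDC changed what a later joint regimen of HFD and ethanol did to gene expression in mouse liver. It was the difference of a pair of effects: DDC+EtOH minus DDC+Cont, and EtOH minus Control 28D. Groups were taken from the sample titles, and 20 of the 40 libraries of the study belonged to these 4 groups. All mice were adult males of the strain C57BL/6, and each library was made from messenger RNA of snap-frozen liver. Control 28D (n = 5) received the diet that the labels mark BD and then BD again. EtOH (n = 4) received BD and then HFD with ethanol. DDC+Cont (n = 5) received the DDC diet and then BD, and DDC+EtOH (n = 6) received the DDC diet and then HFD with ethanol. DDC is 3,5-diethoxycarbonyl-1,4-dihydrocollidine, fed at 0.05% w/w to bring on chronic liver fibrosis. Ethanol ran continuously through a surgically placed gastric tube, with a ceiling of 27 g/kg/day and of 28 days. What BD and HFD stand for, and whether BD mice carried a tube, is not stated, so a joint effect holds HFD, ethanol and any difference in feeding together. Each label carries its own animal number, so libraries were taken as 1 per animal. The p-values measure the spread between libraries of a group. Unless a fit is said to leave some out, that spread was estimated from all 40 libraries, groups outside this comparison included. From animal 28 on, the number in the deposited name differs from that in the title. Titles were followed, and the diets in the deposited name matched the title's group for each of the 20 libraries.

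Hepatocytes oxidise ethanol by alcohol dehydrogenase, aldehyde dehydrogenase and the cytochrome Cyp2e1. The nuclear receptors CAR and PXR switch on cytochromes and transferases that clear drugs, and NRF2 switches on glutathione and quinone defence genes under oxidative stress. In rodents, growth hormone pulses keep a male and a female program of liver genes apart. DDC blocks heme synthesis at ferrochelatase and plugs small bile ducts, which in mice brings ductular cells, myofibroblasts, macrophages and keratin aggregates known as Mallory-Denk bodies.

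The 20 libraries held between 10225087 and 26398061 reads assigned to genes, with a median of 13917968. Values below are CPM, counts scaled to a common library size after TMM adjustment of the totals, and effects are log2 fold changes ± SE. Spearman correlations between libraries of a group ran from 0.961 to 0.995, with the lowest in DDC+EtOH. The plasma protein gene Alb, a marker of hepatocytes, ran from 33809 to 71924 CPM in Control 28D and from 26701 to 62889 CPM in DDC+Cont, and the summed level of 19 hepatocyte genes ranged from 91607 to 148638 CPM over the 20 libraries. Of 8 pancreatic enzyme transcripts, the sum passed 1000 CPM in DDC+Cont replicate 24 (2667 CPM) and DDC+EtOH replicates 38 (7578 CPM) and 41 (1871 CPM), and in no library of the other groups compared. A clock score, the mean log2 CPM of Arntl, Npas2 and Clock minus that of Dbp, Tef, Hlf and Per3, ran from 1.65 to 2.24 in Control 28D and from 2.02 to 2.27 in DDC+Cont. It was lower and more spread in EtOH (-1.84 to 0.313) and DDC+EtOH (-2.06 to 1.18). The labels give no time of day, so its part in the results was not tested beyond a fit that holds the score as a term. DDC+EtOH replicates 38 and 41, both over 1000 pancreatic enzyme CPM, had clock scores of -1.89 and -2.01. Below, shifts seen without the libraries over 1000 pancreatic enzyme CPM therefore cannot be told apart from clock state. That setting also takes libraries of HFD and DDC+HFD out of the fit.

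The joint regimen changed many genes in common with and without earlier DDC. Without DDC it changed 2611 of 14355 tested genes (18.2%), of which 1434 (9.99%) rose and 1177 (8.2%) fell. After DDC it changed 3388 genes (23.6%), of which 1781 (12.4%) rose and 1607 (11.2%) fell. Of the genes that rose, 930 did so in both histories, 64.9% of the list without DDC and 52.2% of the list after DDC. Of those that fell, 750 did so in both, 63.7% and 46.7% of the lists. A gene was called at a Benjamini-Hochberg adjusted p under 0.05 in a two-sided edgeR quasi-likelihood test. The joint effects share no library, and their Pearson correlation over the 14355 genes was 0.776 (Spearman 0.665), a description across genes that are not independent replicates. It was 0.699 without EtOH replicate 21 and 0.392 when genes of low counts were let in.

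**Figure D1:**
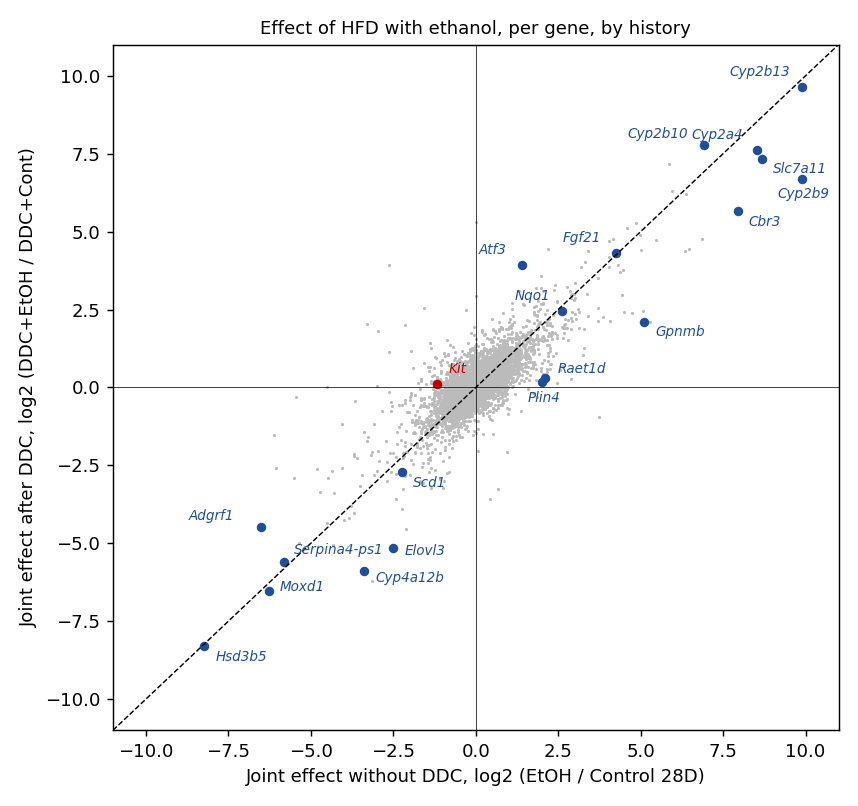
Each point is 1 of 14355 genes, with the log2 joint effect without DDC on the x axis and after DDC on the y axis; the dashed line marks equal effects, and named genes are coloured. Genes lie along the dashed line (Pearson correlation 0.776), and Kit, in red, is the gene whose difference passed the test.

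The difference between the histories passed the test for 1 of 14355 genes (0.00697%), Kit, and it was positive. No gene passed in the negative direction (0%). At an unadjusted p under 0.05 there were 1012 genes (7.05%), 463 positive (3.23%) and 549 negative (3.82%), and DESeq2 called 11. This does not show that the other genes responded alike. The median SE of a difference was 0.21 log2 units, against 0.16 for the joint effect without DDC and 0.14 for that after DDC. The 95% interval of the difference lay within ±1 log2 unit, a 2-fold change, for 10666 genes (74.3%) and within ±2 units, a 4-fold change, for 13440 genes (93.6%). Among the 1681 genes called in both histories the interval lay within ±1 unit for 79.2%. Genes called without DDC had a median absolute log2 effect of 0.57 there and 0.43 after DDC, while genes called after DDC had 0.53 there and 0.41 without DDC. Each list was chosen by passing in its own history, which by itself favours larger effects there, so these medians do not set the histories apart. Ing4, a subunit of a histone acetyltransferase complex, was the only gene called in opposite directions, and its values stand below.

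Kit, the receptor tyrosine kinase for stem cell factor carried by mast cells and blood progenitors (chromosome 5, 75574916 to 75656722 in GRCm38/mm10, GENCODE vM21), fell under the joint regimen without DDC and showed no such fall after DDC. Its levels were 12.2, 10.8, 13.1, 13.6 and 14.6 CPM in Control 28D and 4.67, 7.19, 5.51 and 5.53 CPM in EtOH. They were 10.8, 8.17, 5.50, 8.45 and 8.68 CPM in DDC+Cont, and DDC+EtOH ran from 6.65 to 12.2 with a median of 8.59 CPM. Every EtOH library lay below every Control 28D library, whereas the DDC groups overlapped each other and both reached into the EtOH range, and DDC+EtOH also reached into that of Control 28D. These are 60 to 234 reads per library, and in bulk tissue fewer cells of a type and less RNA per cell cannot be told apart. The joint effect was -1.16 ± 0.16 without DDC and 0.10 ± 0.14 after DDC. The difference was 1.27 ± 0.22 (95% interval 0.82 to 1.71), with an adjusted p of 0.0170 in edgeR's quasi-likelihood test with Benjamini-Hochberg adjustment. The same 4 groups give the difference as a change of the DDC effect: the log2 level of Kit in DDC+Cont minus that in Control 28D was -0.64 (adjusted p 0.0168 by edgeR, where 1.52% of all genes were called and 0.286% were lower) and in DDC+EtOH minus EtOH it was 0.63 (adjusted p 0.0126 by edgeR, where 6.69% of all genes were called and 4.12% were higher). In the groups given HFD without ethanol the levels were 10.8 ± 1.32 CPM (SD, n = 6) in HFD and 10.2 ± 1.76 CPM (SD, n = 6) in DDC+HFD. The difference therefore splits into 0.56 (95% interval 0.15 to 0.97) for HFD and 0.71 (95% interval 0.28 to 1.13) for ethanol added to it, neither past the adjusted threshold in edgeR (adjusted p 0.546 and 0.527).

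By edgeR the call on Kit sits close to the threshold, while its adjusted p by DESeq2 was 0.000268. The difference kept its sign and lay between 1.15 and 1.41 when any 1 of the 20 libraries was left out. The adjusted p by edgeR then ran from 0.00405 without DDC+Cont replicate 24 to 0.0939 without EtOH replicate 20. Without Control 28D replicate 13 it was 0.0700. It was 0.0714 with sequencing lane as a term and 0.0961 when only the 20 libraries entered the fit. By the lane given in the deposited names, lanes 3 and 4 each held all 4 groups, and within them the difference was 1.22 and 0.949 on the scale of log2(CPM + 1). With the clock score as a term, a fit added after seeing the data, the difference was 1.23 and the adjusted p by edgeR 0.0160. The sign of the joint effect on Kit after DDC, which did not pass, varied: it was -0.15 with the clock score as a term, -0.017 without DDC+Cont replicate 26 and -0.0046 without DDC+EtOH replicate 41.

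No other gene passed the test, and the genes next in line are given as values. Among positive differences were Rdh9, a retinol dehydrogenase, Plce1, a phospholipase C, Fmn1, a formin that nucleates actin filaments, and Fgfr2, a fibroblast growth factor receptor. Impg2, a proteoglycan of the interphotoreceptor matrix, Map3k13, a kinase above JNK, App, the amyloid precursor protein, Sik1, a salt-inducible kinase, and Dip2b made up the 10 with Kit. The smallest adjusted p among these 9 was 0.0987 (edgeR's quasi-likelihood test, Benjamini-Hochberg adjustment).

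Rdh9 stood at 38.4, 34.9, 42.8, 65.2 and 40.1 CPM in Control 28D, 28.0, 16.8, 27.4 and 22.5 CPM in EtOH and 33.5, 30.8, 23.7, 34.8 and 31.1 CPM in DDC+Cont. DDC+EtOH ran from 28.8 to 49.5 with a median of 41.1 CPM. EtOH lay below Control 28D with no overlap, and the DDC groups overlapped through DDC+EtOH replicate 38, the lowest of its group. The joint effect was -0.91 ± 0.20 without DDC, a fall, and 0.43 ± 0.18 after DDC, a difference of 1.34 ± 0.27 (95% interval 0.78 to 1.89). Without DDC+EtOH replicate 38 both the difference (adjusted p 0.0281 by edgeR) and the effect after DDC passed. Rdh9 lies among closely similar retinol dehydrogenase genes at chromosome 10, 127776386 to 127792697, and its counts are uncertain to that extent. Fmn1 stood at 31.6, 25.7, 24.2, 27.0 and 25.4 CPM in Control 28D and 9.03, 9.25, 11.0 and 11.0 CPM in EtOH. It stood at 19.0, 19.8, 32.5, 17.3 and 24.7 CPM in DDC+Cont and ran from 13.5 to 24.9 with a median of 17.1 CPM in DDC+EtOH. The fall without DDC (-1.41 ± 0.19) separated the groups completely, and after DDC the effect was -0.31 ± 0.16 with overlapping groups, a difference of 1.10 ± 0.25 (95% interval 0.60 to 1.60, adjusted p 0.101 by edgeR), which passed without DDC+Cont replicate 26 (adjusted p 0.0308 by edgeR). Plce1 (-0.39 and 0.17) and Fgfr2 (-0.65 and 0.018) also fell without DDC and did not pass the test after DDC, as did Impg2 (-1.20 and -0.23).

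App showed the other arrangement. It stood at 55.2, 56.2, 57.5, 64.3 and 75.0 CPM in Control 28D, 82.9, 78.9, 74.8 and 77.7 CPM in EtOH and 58.7, 56.9, 61.1, 66.5 and 51.1 CPM in DDC+Cont, and ran from 90.1 to 214 with a median of 118 CPM in DDC+EtOH. All 6 DDC+EtOH libraries lay above all DDC+Cont libraries, with replicates 39, 40 and 41 highest. The rise after DDC was 1.19 ± 0.15, against 0.35 ± 0.16 without DDC, which did not pass, and the difference was 0.84 ± 0.22 (95% interval 0.39 to 1.28, adjusted p 0.391 by edgeR). App also rose without DDC with the clock score as a term, by 0.55 (adjusted p 0.0366 by edgeR). Map3k13 had -0.53 without DDC and 0.68 after it, a rise that was lost without the libraries over 1000 pancreatic enzyme CPM and with the clock score as a term. Sik1 had -0.85 and 0.43, and its fall without DDC was lost when any of 4 libraries was left out (Control 28D replicates 12 and 13, EtOH replicates 20 and 23) and with the clock score as a term. Dip2b had -0.24 and 0.21, neither past the test, though the former passed without Control 28D replicates 9 or 11 and the latter without DDC+Cont replicate 24 or DDC+EtOH replicate 42.

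**Figure D2:**
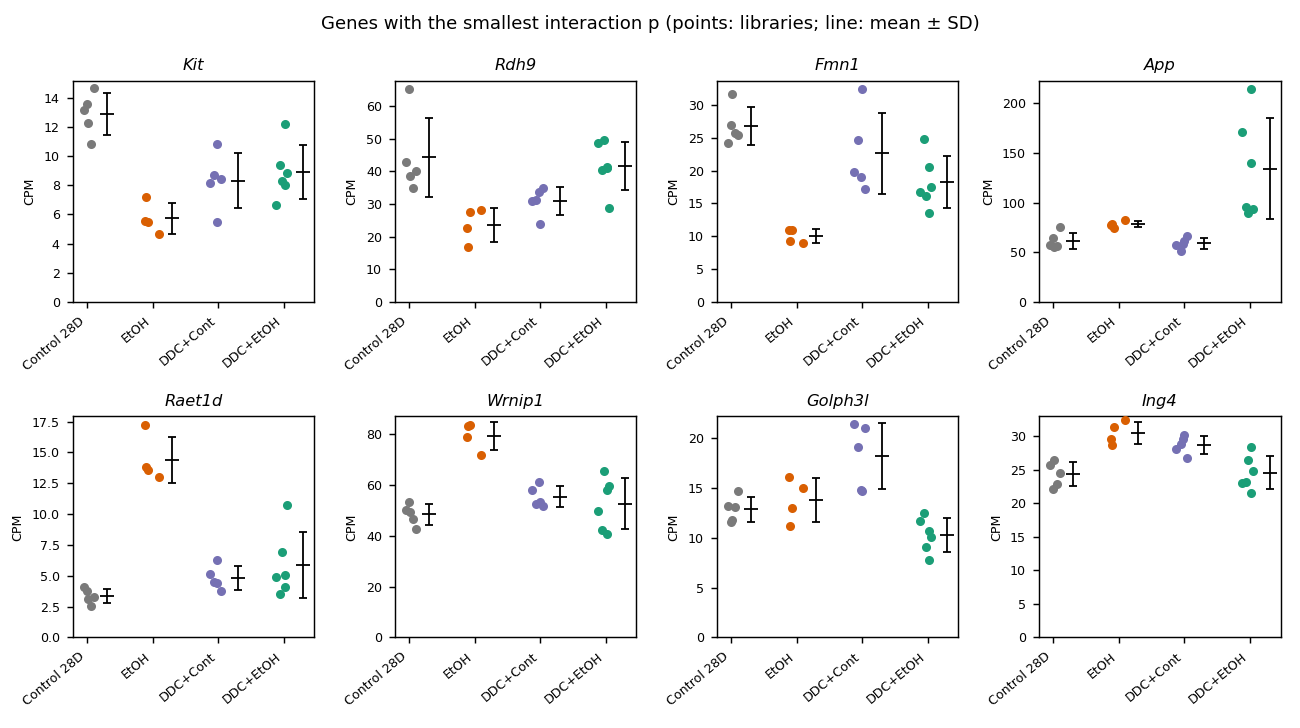
Levels in CPM by library for 4 genes with positive and 4 with negative differences among those of smallest p; the x axis gives the 4 groups, points are libraries, and bars are mean ± SD. Kit, Rdh9 and Fmn1 drop from Control 28D to EtOH, and Raet1d and Wrnip1 climb there, whereas the DDC groups overlap for all of these; App climbs and Golph3l drops from DDC+Cont to DDC+EtOH without overlap.

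Among the 10 negative differences of smallest p, none passed the test. Raet1d, a ligand of the NKG2D receptor of natural killer cells (chromosome 10, 22360552 to 22374139), stood at 3.08, 2.57, 4.11, 3.74 and 3.23 CPM in Control 28D and 13.0, 13.8, 13.6 and 17.2 CPM in EtOH. It stood at 6.27, 5.13, 4.40, 3.79 and 4.48 CPM in DDC+Cont and ran from 3.51 to 10.8 with a median of 4.98 CPM in DDC+EtOH, where replicate 38 was highest. Every EtOH library lay above every other library of the 4 groups. The rise without DDC was 2.09 ± 0.28, the effect after DDC 0.30 ± 0.26, and the difference -1.79 ± 0.38 (95% interval -2.56 to -1.02, adjusted p 0.0987 by edgeR). Raet1d passed the test without the libraries over 1000 pancreatic enzyme CPM and without DDC+EtOH replicate 38 alone. It has near-identical family copies, so its counts are uncertain.

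Wrnip1, an ATPase that binds the Werner helicase, stood at 49.5, 46.5, 50.2, 53.2 and 42.7 CPM in Control 28D and 72.0, 83.1, 83.7 and 78.8 CPM in EtOH, without overlap. In DDC+Cont it stood at 61.3, 57.9, 53.5, 51.8 and 52.5 CPM and in DDC+EtOH it ran from 40.6 to 65.7 with a median of 53.9 CPM, and these groups overlapped. The rise was 0.71 ± 0.13 without DDC against -0.072 ± 0.11 after it. Cenpv (0.89 and 0.33), a centromere protein, rose in both histories, though the rise after DDC was lost without DDC+Cont replicate 26 and with the clock score as a term, and Sytl1 (0.68 and -0.014), an effector of Rab27 in secretion, rose without DDC. Ddc, the gene of dopa decarboxylase and unrelated to the compound DDC, had 0.59 and -0.34, and its rise without DDC was lost without EtOH replicate 23 and with only the 20 libraries in the fit, and was 0.94 with the clock score as a term. Ddc fell after DDC when DDC+EtOH replicate 43 was left out.

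Golph3l, a Golgi phosphoprotein, stood at 14.8, 21.4, 14.7, 21.1 and 19.1 CPM in DDC+Cont and ran from 7.81 to 12.4 with a median of 10.3 CPM in DDC+EtOH, with no overlap, against 11.8, 13.1, 13.2, 11.6 and 14.7 CPM in Control 28D and 15.0, 11.1, 13.0 and 16.1 CPM in EtOH. Its effects were 0.096 ± 0.15 and -0.83 ± 0.14. Stx5a, a syntaxin of vesicle traffic between endoplasmic reticulum and Golgi, had -0.018 ± 0.12 and -0.67 ± 0.10, and the sialyltransferase St6galnac6 had 0.11 ± 0.077 and -0.36 ± 0.069. Each fell after DDC and did not pass without it, and for none of them did the difference pass in edgeR.

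Ing4 stood at 26.5, 22.9, 25.7, 22.1 and 24.6 CPM in Control 28D and 32.4, 28.7, 31.3 and 29.6 CPM in EtOH, without overlap, and rose (0.32 ± 0.088). In DDC+Cont it stood at 29.6, 28.0, 30.1, 26.8 and 28.9 CPM and in DDC+EtOH it ran from 21.5 to 28.3 with a median of 24.0 CPM, with overlap, and fell (-0.22 ± 0.079). The difference was -0.54 ± 0.12 (adjusted p 0.0987 by edgeR). The fall after DDC was lost when any of 7 libraries was left out (DDC+Cont replicates 24, 25, 26 and 29, DDC+EtOH replicates 40, 41 and 42), without the low-count filter, without the libraries over 1000 pancreatic enzyme CPM and with the clock score as a term. Mtmr14, a phosphoinositide phosphatase, had 0.26 and -0.19, and its rise without DDC was lost without Control 28D replicate 9 or EtOH replicates 20, 22 or 23, with only the 20 libraries and without the low-count filter, while it fell after DDC without DDC+EtOH replicate 43.

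A pair of further genes were singled out after their values were seen. Fndc5, the precursor of irisin, stood at 0.0911 to 0.246 CPM in Control 28D and 3.10 to 7.55 CPM in EtOH, and at 0.549 to 1.17 and 2.86 to 5.49 CPM in the DDC groups. It rose in both histories, by 4.75 ± 0.35 and 2.40 ± 0.26, and the difference of -2.35 ± 0.46 had an adjusted p of 0.0825 by edgeR. It passed without EtOH replicate 22 or EtOH replicate 23 and in DESeq2. Rpl36al, a ribosomal protein gene, had 4559.6 CPM in Control 28D replicate 13, against 119 to 142 CPM in the group's other 4 libraries. Its difference of 3.02 and its fall without DDC (-2.99, or -0.042 without that library) therefore rest on 1 library.

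Drug-clearance genes rose far under both histories. Against 9.99% and 12.4% of all genes, 13 of 15 targets of CAR and PXR rose without DDC and 13 rose after DDC, the same 13, with median effects of 2.93 and 3.10 (all genes: -0.0021 and 0.0094). None fell. Cyp2b10, the classical CAR cytochrome, stood at 15.4, 3.50, 11.7, 25.2 and 9.55 CPM in Control 28D and 959, 2476, 1368 and 1491 CPM in EtOH. It stood at 9.13, 9.33, 3.30, 9.69 and 5.30 CPM in DDC+Cont and ran from 204 to 2877 with a median of 1870.4 CPM in DDC+EtOH. Joint-regimen libraries lay above all others, and DDC+EtOH replicates 41 and 42, at 204 and 265 CPM, stood below the 1530.3 to 2877 CPM of the other 4. The effects were 6.91 ± 0.67 and 7.77 ± 0.68, a difference of 0.86 ± 0.76 (95% interval -0.68 to 2.41). Cyp2c29 (difference 0.73 ± 0.29, 95% interval 0.14 to 1.32) and Cyp2a5 (0.66 ± 0.39, -0.13 to 1.46) rose from lower levels in DDC+Cont, and in CPM their increments were smaller after DDC than without it. Cyp3a11, the main PXR cytochrome, rose by 1.37 ± 0.31 and 1.20 ± 0.28. Members of the Cyp2a, Cyp2b and Cyp2c families share sequence, and the deposited files tally reads without a unique alignment apart from genes, so their levels are uncertain.

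Most genes of the male program fell and most tested genes of the female program rose, with and without DDC. Of 14 male-biased genes 11 fell without DDC, and 12 fell and 1 rose after it (falls 8.2% and 11.2% of all genes), with median effects of -2.29 and -2.68. Hsd3b5, a male-specific steroid dehydrogenase (chromosome 3, 98618634 to 98630252), stood at 236, 252, 198, 135 and 211 CPM in Control 28D and 0.389, 0.925, 0.904 and 0.442 CPM in EtOH, and at 144, 89.8, 19.1, 43.4 and 69.1 CPM in DDC+Cont, and ran from 0 to 1.17 with a median of 0.104 CPM in DDC+EtOH. Both joint groups lay far below their controls with no overlap, and the effects of -8.23 ± 0.99 and -8.30 ± 0.90 differed by -0.077 ± 1.05 (95% interval -2.22 to 2.07). The transporter Slco1a1 (-3.84 and -4.20) fell likewise, as did Moxd1, a monooxygenase-like protein named for its size of effect (-6.27 and -6.53). The log2 difference lay below 0 for 11 of 14, and 4 had an unadjusted p under 0.05, against 7.05% of all genes, but none passed. Values follow for 3 members with the lower effect after DDC on the log scale. Elovl3, a fatty acid elongase, stood at 699, 661, 746, 596 and 594 CPM in Control 28D and 72.6, 49.3, 141 and 205 CPM in EtOH. It stood at 622, 419.9, 219, 261 and 463 CPM in DDC+Cont and ran from 0.656 to 22.4 with a median of 13.0 CPM in DDC+EtOH, so every DDC+EtOH library lay below every EtOH library. The effects were -2.50 ± 0.67 and -5.16 ± 0.65, a difference of -2.66 ± 0.85 (95% interval -4.40 to -0.93, adjusted p 0.517 by edgeR), and with the clock score as a term the fall without DDC was lost. Cyp4a12b, an omega-hydroxylase, had a difference of -2.51 ± 0.89 and the serpin Serpina1e one of -1.16 ± 0.55. On the CPM scale the sign of all 3 differences turns, with mean levels lower in DDC+Cont than in Control 28D. Without the libraries over 1000 pancreatic enzyme CPM the list's median difference was 0.066, against -0.19 with them.

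Of 10 tested female-biased genes 6 rose in each history, the same 6, with median effects of 3.19 and 2.10. Cyp2b9 stood below 1 CPM in every Control 28D library and at 457, 312, 321 and 228 CPM in EtOH. It stood at 1.38, 0.600, 0.0688, 18.6 and 1.28 CPM in DDC+Cont, where replicate 28 was far above the rest, and ran from 225 to 734 with a median of 426 CPM in DDC+EtOH. The effects were 9.91 ± 1.14 and 6.70 ± 0.88, and the difference of -3.21 ± 1.39 has an interval of -6.04 to -0.37. The rise in CPM was larger after DDC, the reverse of the log2 sign. Cyp2a4, a steroid hydroxylase (8.52 and 7.62), rose likewise. The median difference of the list was -0.041, and from -0.41 (without DDC+EtOH replicate 38) to 0.42 (without DDC+Cont replicate 28) with any 1 library left out. The count after DDC was 4 with the clock score as a term. Without the libraries over 1000 pancreatic enzyme CPM, 5 of the list rose after DDC and the median difference was -0.95.

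Of 23 NRF2 targets 18 rose and 1 fell without DDC, and 19 rose and none fell after it, with 18 rising in both and medians near 1.5 in both histories. Nqo1, a quinone reductase, stood at 7.38, 8.74, 8.04, 10.0 and 7.54 CPM in Control 28D and 35.1, 53.4, 52.3 and 63.1 CPM in EtOH. It stood at 7.47, 8.59, 10.7, 8.67 and 8.23 CPM in DDC+Cont and ran from 23.2 to 82.5 with a median of 44.3 CPM in DDC+EtOH. The groups did not overlap in either history, and the effects of 2.62 ± 0.26 and 2.45 ± 0.25 differed by -0.16 ± 0.35 (95% interval -0.87 to 0.55), which lies within ±1 unit. Slc7a11, the cystine importer, rose by 8.68 ± 1.17 and 7.34 ± 0.93, with DDC+EtOH libraries at 8.40 to 142 CPM and EtOH libraries at 6.39 to 121 CPM, of which replicate 23 was far above the rest. Gclc, the rate-limiting subunit of glutathione synthesis, rose by 1.53 ± 0.21 and 0.98 ± 0.19. Lower effects after DDC with intervals that left out 0 were seen for the transferase Gsta1 (-2.03 ± 0.70, 95% interval -3.46 to -0.61) and the carbonyl reductase Cbr3 (-2.29 ± 0.89, -4.10 to -0.48). Neither passed over all genes (adjusted p 0.533 and 0.596 by edgeR).

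**Figure D3:**
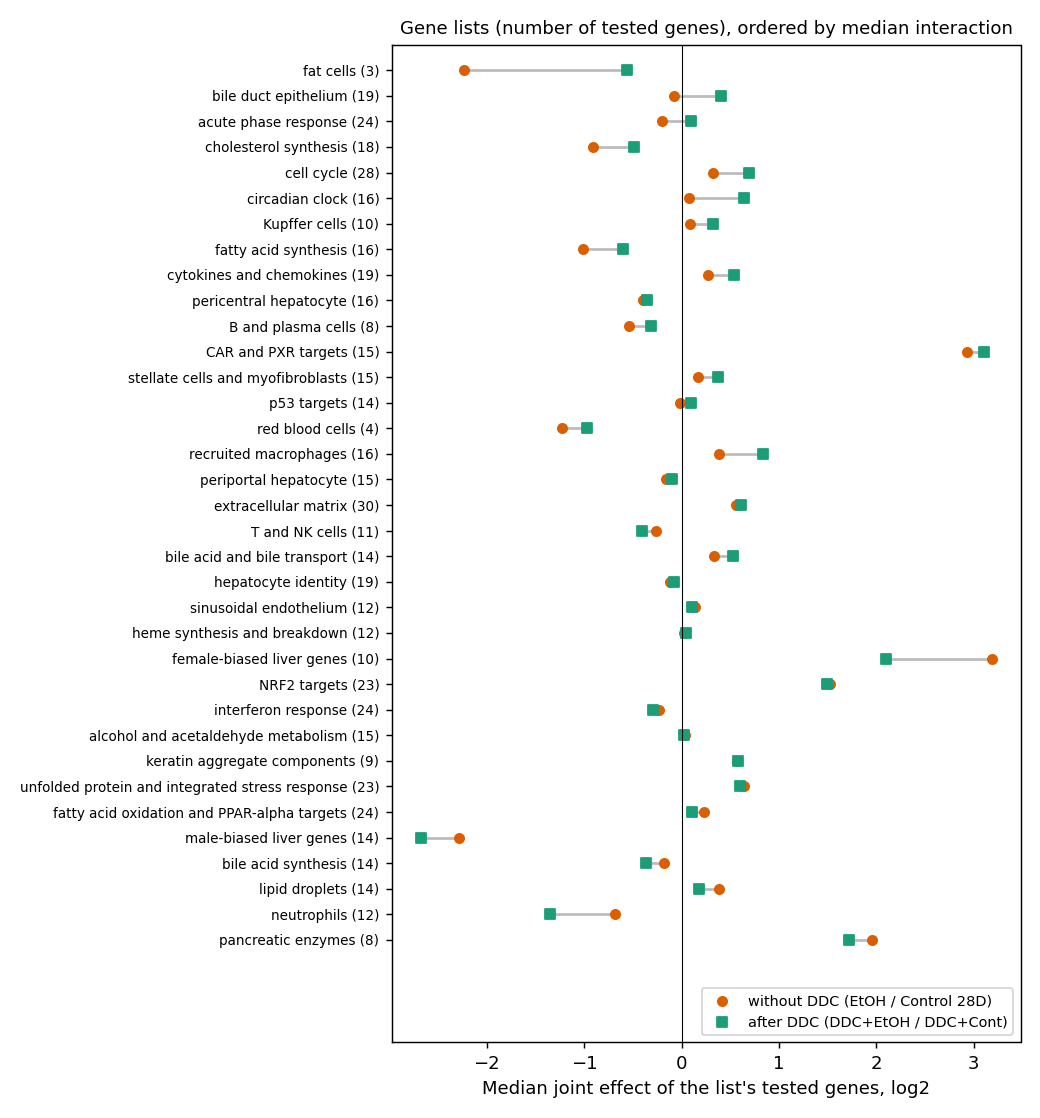
Median log2 joint effect of each gene list, without DDC as circles and after DDC as squares, with the number of tested genes in parentheses and lists ordered by the median of their genes' differences. The CAR and PXR, NRF2 and sex-biased lists lie far from 0 in both histories, and for bile duct epithelium the square lies to the right of the circle (-0.078 and 0.40) while for lipid droplets it lies to the left (0.39 and 0.18).

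Of 14 tested lipid droplet genes, 6 rose without DDC, against 2 rising and 1 falling after DDC, with medians of 0.39 and 0.18. The median difference was -0.43 (all genes 0.0044), 11 of 14 lay below 0, and 5 had an unadjusted p under 0.05, against 7.05% of all genes, but none passed over all genes. Leaving out any 1 library kept the median difference between -0.51 and -0.37. After DDC 3 rose and none fell with the clock score as a term. Members are measured in the same libraries, so such counts are not independent. Plin4, a perilipin of lipid droplets and muscle (chromosome 17, 56100591 to 56109803), stood at 18.5, 21.6, 20.8, 31.4 and 17.7 CPM in Control 28D and 73.8, 86.7, 85.0 and 105 CPM in EtOH. It stood at 31.0, 24.4, 17.5, 24.5 and 20.5 CPM in DDC+Cont and ran from 16.2 to 38.5 with a median of 24.7 CPM in DDC+EtOH. The EtOH libraries lay above all 16 others, which overlapped. The effects were 2.00 ± 0.45 and 0.16 ± 0.41, and the difference -1.84 ± 0.61 (95% interval -3.08 to -0.60, adjusted p 0.521 by edgeR).

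Cidec, which fuses lipid droplets into larger ones, stood at 3.26, 4.52, 5.38, 3.10 and 3.88 CPM in Control 28D and 10.7, 8.73, 15.9 and 28.4 CPM in EtOH. It stood at 4.89, 7.43, 2.68, 4.66 and 2.83 CPM in DDC+Cont and ran from 2.69 to 11.9 with a median of 4.75 CPM in DDC+EtOH, where replicates 39 and 40 were highest. The EtOH libraries lay above the Control 28D libraries, while the DDC groups overlapped, and the effects were 1.97 ± 0.38 and 0.52 ± 0.35. Cidec also rose after DDC with the clock score as a term, by 1.28 (adjusted p 0.0245 by edgeR). Cd36, the fatty acid translocase, rose in both histories, by 1.88 ± 0.16 and 1.23 ± 0.15. Its difference of -0.64 ± 0.22 has an interval of -1.08 to -0.21, and its level in DDC+Cont was already 0.71 log2 units above Control 28D (adjusted p 0.00676 by edgeR). Plin3 (0.60 and 0.24) and the acyltransferase Mogat1 (2.26 and 0.59) completed the 5. The rise of Plin3 after DDC was lost without any of 6 libraries (EtOH replicate 23, DDC+Cont replicates 24, 25 and 28, DDC+EtOH replicates 38 and 39), with lane as a term, with only the 20 libraries, without the low-count filter, without the libraries over 1000 pancreatic enzyme CPM and with the clock score as a term. Then 1 of the list rose after DDC without EtOH replicate 23, DDC+Cont replicates 24 or 25 or DDC+EtOH replicate 39. Plin2, the main hepatocyte perilipin, had 0.10 ± 0.18 and -0.041 ± 0.16 with a difference of -0.14 ± 0.24 (95% interval -0.63 to 0.34). Plin4, Cidec and Cd36 are also fat cell genes. The fat cell hormone Adipoq stood at or under 0.547 CPM in Control 28D and 0.0822 CPM in EtOH, at 0.219 to 2.41 CPM in DDC+Cont and at 3.74 CPM in DDC+EtOH replicate 39, with 0.189 CPM or less in the other 5. Of the 6 fat cell genes listed, 3 had enough reads to be tested (Adipoq, Cfd and Car3), and none passed in either joint effect. Without DDC+EtOH replicate 39, Adipoq (-3.29) and Cfd (-3.80) fell after DDC, and Cfd fell without DDC (-2.53). Car3 rose without DDC with lane as a term (1.32) and without the libraries over 1000 pancreatic enzyme CPM (0.95). The sum of the 3 genes ran from 1809.98 to 2367 CPM in Control 28D and 3865 to 4064 CPM in EtOH. It ran from 870.4 to 2036 CPM in DDC+Cont and 556 to 2540.2 CPM in DDC+EtOH. Nearly all of it was Car3, a carbonic anhydrase that hepatocytes express too. Any part of fat cells in the levels of Plin4, Cidec, Cd36 and Car3 was not tested.

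Of 16 fatty acid synthesis genes 9 fell without DDC, and 9 fell and 1 rose after DDC, 7 of the falls being shared. Without DDC+Cont replicate 28, 5 fell after DDC. Scd1, the stearoyl-CoA desaturase, fell in both (-2.25 ± 0.42 and -2.72 ± 0.37), and DDC+EtOH replicate 42, at 9006 CPM, stood above the 1369.9 to 3504 CPM of the other 5. Fasn, the fatty acid synthase, fell without DDC (-1.93 ± 0.55) and had -1.04 ± 0.47 after it. Its Control 28D libraries stood at 4195, 3636, 4181, 629.9 and 3428 CPM, with replicate 12 far below the rest, and its EtOH libraries at 892, 788, 828 and 872 CPM. The DDC+Cont libraries, at 1461, 1741, 963, 3068 and 2098 CPM, overlapped the 290.2 to 1850.2 CPM of DDC+EtOH. The difference of 0.89 ± 0.71 has a wide interval of -0.56 to 2.34. Acly, which makes cytosolic acetyl-CoA, fell in both (-1.85 ± 0.36 and -1.10 ± 0.30). With the clock score as a term 13 genes of the list fell in each history. Fasn then fell in both, with -2.96 without DDC and -2.60 after it (adjusted p 0.00174 by edgeR for the latter), and Acly had -2.10 after DDC. Fasn also passed after DDC without DDC+EtOH replicates 41 or 42.

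Of 18 cholesterol synthesis genes 13 fell without DDC and 6 after it, all 6 among the 13, with medians of -0.91 and -0.49. The difference lay above 0 for 17 of 18, with a median of 0.36, yet only Sqle had an unadjusted p under 0.05. Sqle, squalene epoxidase, stood at 159.7, 166, 184, 133 and 144 CPM in Control 28D and 40.2, 67.7, 54.0 and 62.4 CPM in EtOH. It stood at 104, 123, 114, 109 and 159 CPM in DDC+Cont and ran from 35.0 to 127 with a median of 82.1 CPM in DDC+EtOH. The fall without DDC left a wide gap between the groups (-1.48 ± 0.26), and that after DDC was smaller with overlap (-0.64 ± 0.23), a difference of 0.85 ± 0.34 (95% interval 0.15 to 1.55, adjusted p 0.624 by edgeR). The libraries bear on this list: without those over 1000 pancreatic enzyme CPM, 14 fell without DDC and 10 after it, and the median difference was 0.12. The count after DDC was 3 without DDC+Cont replicate 29 or DDC+EtOH replicates 39, 40 or 41 and 10 without DDC+EtOH replicate 38, and Sqle's fall after DDC was lost without any of 5 libraries (DDC+Cont replicates 25 and 29, DDC+EtOH replicates 39, 40 and 41), without the low-count filter and with only the 20 libraries. With the clock score as a term the counts were 16 and 13, and Sqle had -1.17 after DDC.

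Of 24 genes of fatty acid oxidation and PPAR-alpha targets 9 rose without DDC, and 7 rose and 1 fell after it, 6 of the rises being shared. Cyp4a14, an omega-hydroxylase induced by PPAR-alpha, stood at 20.1, 11.7, 46.3, 49.0 and 12.0 CPM in Control 28D and 535, 108, 309.8 and 132 CPM in EtOH. DDC+Cont stood at 53.3, 71.4, 26.2, 208 and 23.8 CPM and DDC+EtOH ran from 39.7 to 509 with a median of 147 CPM, overlapping widely. The rise was 3.28 ± 0.85 without DDC and the effect 1.26 ± 0.75 after it, and the difference was -2.02 ± 1.09 (95% interval -4.23 to 0.19). Vnn1, a pantetheinase, rose in both (2.46 ± 0.31 and 1.68 ± 0.28). The count after DDC was 4 without those over 1000 pancreatic enzyme CPM, without the low-count filter, and without any of 3 libraries (DDC+Cont replicates 26 and 29, DDC+EtOH replicate 39).

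**Figure D4:**
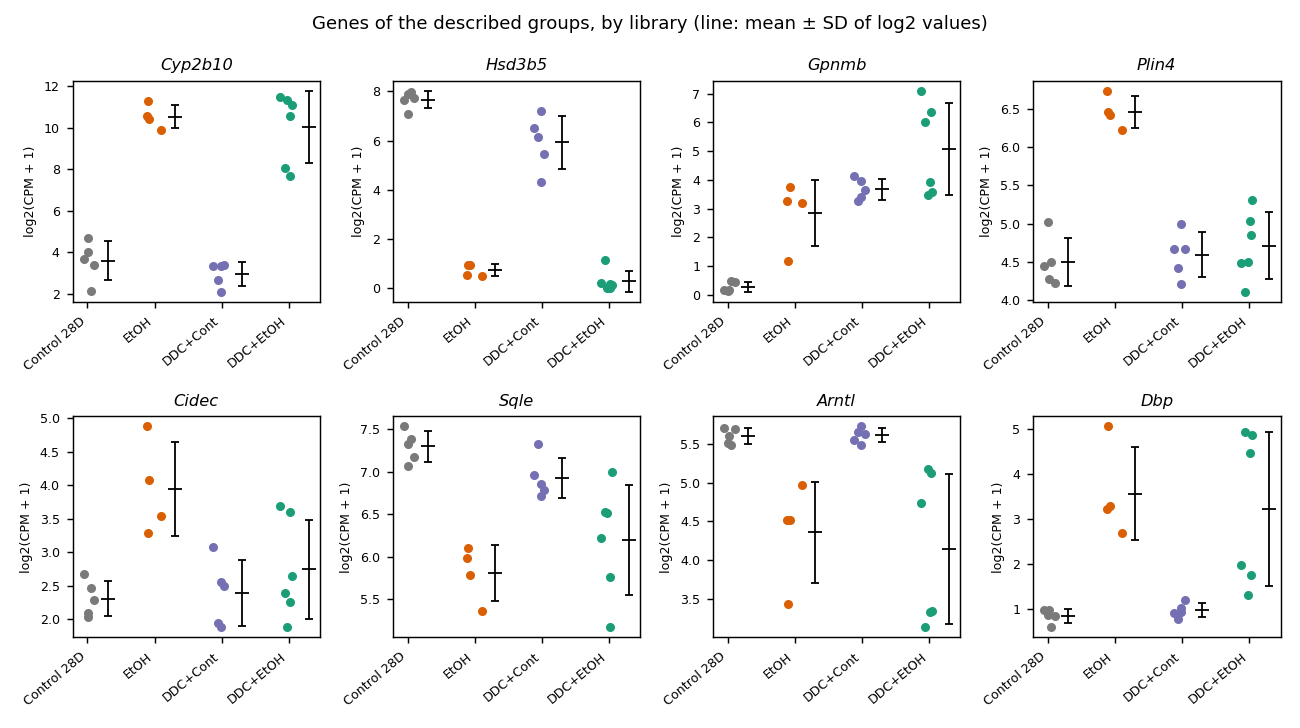
Levels by library on the log2(CPM + 1) scale for 8 genes; points are libraries, bars are mean ± SD of the log values, and the y axes do not start at 0. Cyp2b10 climbs and Hsd3b5 drops in both histories, Plin4 climbs in EtOH, Gpnmb starts higher in DDC+Cont than in Control 28D, and Arntl and Dbp split the DDC+EtOH libraries 3 and 3.

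Bile duct genes, as a sum, stood higher in the DDC history. The summed level of 19 bile duct genes ran from 153 to 183 CPM in Control 28D, 159.7 to 174 CPM in EtOH, 215 to 278 CPM in DDC+Cont and 233 to 431 CPM in DDC+EtOH, so both DDC groups lay above both others. Of 19 tested, 1 rose and 1 fell without DDC (9.99% and 8.2% of all genes), and 3 rose and 1 fell after DDC (12.4% and 11.2%), with medians of -0.078 and 0.40. Counts so near or below these shares say nothing particular about the list. The difference lay above 0 for 18 of 19 with a median of 0.51, and between 0.33 and 0.59 with any 1 library left out, but none passed, and 2 had an unadjusted p under 0.05. The count that rose after DDC was 5 without DDC+EtOH replicate 43, and the counts of 1 moved to 0 or 2 with single libraries left out (the rise without DDC was lost without EtOH replicate 23). With the clock score as a term none rose or fell without DDC, and 2 rose and none fell after it. A member with an unadjusted p under 0.05 was Epcam, a ductular adhesion molecule, at 1.23, 1.13, 0.868, 0.820 and 0.861 CPM in Control 28D and 0.545, 0.616, 0.986 and 0.811 CPM in EtOH. It stood at 2.03, 3.88, 2.13, 2.62 and 2.47 CPM in DDC+Cont and ran from 2.34 to 5.56 with a median of 3.36 CPM in DDC+EtOH. The DDC groups lay above the others and overlapped each other, with joint effects of -0.42 ± 0.31 and 0.47 ± 0.21 that did not pass and a difference of 0.89 ± 0.37 (95% interval 0.14 to 1.64). The effect after DDC passed with lane as a term and without DDC+Cont replicate 25 (0.67) or DDC+EtOH replicate 43. Spp1, osteopontin, had a difference of 0.38 ± 0.27 and the biliary keratin Krt19 one of 0.52 ± 0.51. Sox9, the transcription factor of duct cells, fell in both (-1.20 and -0.82). Both falls were lost with the clock score as a term, the one without DDC also without EtOH replicate 21, and the one after DDC also without DDC+Cont replicate 29 or DDC+EtOH replicates 41 or 43.

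Of 30 extracellular matrix genes 10 rose without DDC and 16 after it, 9 in both, with medians of 0.56 and 0.61 and a median difference of 0.057, which ran from -0.024 (without DDC+EtOH replicate 42) to 0.17 (without DDC+EtOH replicate 43) with any 1 library left out. Col4a1, a basement membrane collagen, stood at 52.2, 57.1, 64.2, 64.9 and 65.8 CPM in Control 28D and 93.0, 93.2, 100.2 and 102 CPM in EtOH, and at 63.0, 71.3, 72.9, 68.2 and 79.1 CPM in DDC+Cont against 94.4 to 169 with a median of 114 CPM in DDC+EtOH. The groups did not overlap in either history, and the rises of 0.68 ± 0.12 and 0.75 ± 0.11 differed by 0.078 ± 0.16 (95% interval -0.25 to 0.41). Col1a1, of fibrillar collagen I, had 1.17 ± 0.52 and 1.04 ± 0.42, neither called, but the rise after DDC was called with lane as a term and without DDC+Cont replicate 26 or DDC+EtOH replicates 38 or 43. Thbs1, a matricellular activator of TGF-beta, rose after DDC (1.45 ± 0.29) and had 0.46 ± 0.33 without it, with DDC+EtOH replicates 39 and 40 at 30.4 and 22.2 CPM above the rest, and its difference of 0.99 ± 0.44 has an interval of 0.092 to 1.88.

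Of 16 genes of recruited macrophages 6 rose without DDC and 9 after it, 5 in both, and 3 rose without DDC when only the 20 libraries entered the fit. Gpnmb, a glycoprotein of lipid-laden macrophages (chromosome 6, 49036546 to 49070929), stood at 0.123, 0.411, 0.116, 0.0911 and 0.359 CPM in Control 28D and 8.10, 1.23, 12.4 and 8.70 CPM in EtOH. It stood at 9.50, 16.4, 14.4, 11.4 and 8.68 CPM in DDC+Cont and ran from 10.1 to 135 with a median of 38.9 CPM in DDC+EtOH, where replicates 39, 40 and 42 were high and the other 3 lay within the DDC+Cont range. The effect was 5.12 ± 0.93 without DDC and 2.10 ± 0.51 after it, a log2 difference of -3.02 ± 1.16 (95% interval -5.37 to -0.67, adjusted p 0.589 by edgeR). In CPM the order turns, since the mean went from 0.220 ± 0.152 to 7.61 ± 4.66 CPM (SD, n = 5 and 4) without DDC and from 12.1 ± 3.29 to 52.4 ± 50.4 CPM (SD, n = 5 and 6) after it. The protease Mmp12 (6.35 and 4.38) rose in both, and its 3 highest DDC+EtOH libraries were also 39, 40 and 42. Cd68, a lysosomal protein of macrophages, stood at 9.29, 7.92, 8.74, 11.5 and 12.6 CPM in Control 28D, 9.89, 10.8, 13.5 and 12.8 CPM in EtOH and 9.59, 8.68, 12.2, 13.0 and 10.4 CPM in DDC+Cont, and ran from 13.9 to 25.8 with a median of 21.8 CPM in DDC+EtOH, above all DDC+Cont libraries. It rose after DDC (0.94 ± 0.17) and had 0.23 ± 0.19 without it, and the difference was 0.71 ± 0.26 (95% interval 0.19 to 1.23, adjusted p 0.548 by edgeR). The chemokine receptor Cx3cr1 likewise rose after DDC (0.85 ± 0.21) and had 0.21 ± 0.27 without it. None of 10 Kupffer cell genes changed without DDC and 1 rose after it, which was 4 without the libraries over 1000 pancreatic enzyme CPM and 0 without DDC+Cont replicate 25 or 28.

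Of 28 cell cycle genes 2 rose without DDC and 7 after it, where 9.99% and 12.4% of all genes rose. Ccnd1, cyclin D1, stood at 18.3, 21.5, 18.9, 24.3 and 27.3 CPM in Control 28D, 14.9, 29.5, 17.0 and 28.1 CPM in EtOH and 23.9, 30.4, 37.3, 28.9 and 22.4 CPM in DDC+Cont, and ran from 40.2 to 88.0 with a median of 64.1 CPM in DDC+EtOH. All DDC+EtOH libraries lay above all others. The rise after DDC was 1.10 ± 0.24 and the effect without DDC 0.028 ± 0.26, a difference of 1.07 ± 0.35 (95% interval 0.36 to 1.79, adjusted p 0.521 by edgeR). For the list, the median difference of 0.29 went to -0.083 and the count after DDC to 3 without the libraries over 1000 pancreatic enzyme CPM, and that count was 1 with the clock score as a term, 4 without DDC+Cont replicate 25 and 11 without DDC+EtOH replicate 43 or in DESeq2. The count without DDC was 0 without EtOH replicate 23 and 1 without EtOH replicate 21, and with the clock score as a term none rose and 2 fell there.

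Of 9 keratin and ubiquitin genes of Mallory-Denk bodies 6 rose without DDC, and 5 rose and 1 fell after it, 5 of the rises being shared. The count was 4 without DDC when EtOH replicate 23 was left out, and 4 after DDC when DDC+Cont replicates 26, 28 or 29 or DDC+EtOH replicate 42 was left out, without the low-count filter or with the clock score as a term. Krt8, a hepatocyte keratin, stood at 234, 241, 228, 268 and 198 CPM in Control 28D and 289, 285, 378 and 434 CPM in EtOH, and at 222, 229, 279, 188 and 208 CPM in DDC+Cont, and ran from 223 to 439 with a median of 339.7 CPM in DDC+EtOH. The rises of 0.57 ± 0.15 and 0.59 ± 0.14 differed by 0.023 ± 0.21 (95% interval -0.39 to 0.44), within ±1 unit, although the rise without DDC was lost without EtOH replicate 23. Ubb, a polyubiquitin gene, rose by 0.82 ± 0.14 and 0.63 ± 0.13, and Tgm2, a cross-linking transglutaminase, by 0.72 ± 0.13 and 0.58 ± 0.12. Hspb1, a small heat shock protein, rose by 1.76 ± 0.32 and 0.81 ± 0.29, and the rise after DDC was lost when any of 5 libraries was left out (DDC+Cont replicates 26, 28 and 29, DDC+EtOH replicates 41 and 42), without the low-count filter, without the libraries over 1000 pancreatic enzyme CPM and with the clock score as a term.

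Of 15 genes of alcohol and acetaldehyde metabolism, 3 rose and 3 fell without DDC (9.99% and 8.2% of all genes), and 3 rose and 5 fell after it (12.4% and 11.2%). Only 1 fell without DDC when EtOH replicate 21 or 23 was left out or only the 20 libraries entered, and 3 fell after DDC without DDC+Cont replicate 28, without DDC+EtOH replicates 39 or 40, or with only the 20 libraries. Aldh2, the mitochondrial acetaldehyde dehydrogenase, had 0.035 ± 0.12 and 0.021 ± 0.10, and its difference of -0.014 ± 0.16 has an interval of -0.33 to 0.30. Cyp2e1 had -0.35 ± 0.23 and -0.25 ± 0.20, with a difference interval of -0.51 to 0.72. Adh1, the main hepatic alcohol dehydrogenase, rose after DDC (0.45 ± 0.12) and had 0.28 ± 0.13 without it. Its rise was lost without the libraries over 1000 pancreatic enzyme CPM, and the sign turned to -0.043 with the clock score as a term. The retinaldehyde dehydrogenase Aldh1a1 rose in both (1.38 ± 0.16 and 1.09 ± 0.15).

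Of 19 hepatocyte genes in the files, 1 rose and 6 fell without DDC (9.99% and 8.2% of all genes), and 1 rose and 5 fell after it (12.4% and 11.2%), 4 of the falls being shared. Among them 5 had a difference with an unadjusted p under 0.05, against 7.05% of all genes, and none passed. Hnf4a, a master regulator of hepatocytes, had -0.0016 ± 0.12 and 0.0059 ± 0.11, with a difference interval of -0.32 to 0.34. Cps1, the first enzyme of the urea cycle, fell in both (-0.97 ± 0.11 and -0.58 ± 0.093), and its difference of 0.38 ± 0.14 has an interval of 0.10 to 0.67. Tat, a tyrosine aminotransferase, fell without DDC (-1.12 ± 0.29) and had -0.26 ± 0.25 after it, where replicates 38, 41 and 42 were the 3 lowest, down to 565 CPM, and lay below all DDC+Cont libraries, while the other 3 lay above them, up to 2224 CPM. The fall was lost with the clock score as a term.

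Of 14 bile acid synthesis genes 2 rose and 3 fell without DDC (9.99% and 8.2% of all genes), and 1 rose and 8 fell after it (12.4% and 11.2%), 3 of the falls being shared. Cyp7a1, the rate-limiting enzyme, stood at 249, 199.8, 175, 100.3 and 197 CPM in Control 28D, 222, 155, 42.2 and 31.0 CPM in EtOH and 146, 249.6, 126, 253 and 74.0 CPM in DDC+Cont, and ran from 21.7 to 131 with a median of 45.8 CPM in DDC+EtOH. It fell after DDC (-1.64 ± 0.46) and had -0.71 ± 0.51 without it, where EtOH replicates 22 and 23 were low and 20 and 21 lay among the controls. The difference was -0.93 ± 0.68 (95% interval -2.31 to 0.46), and with the clock score as a term the effect after DDC was -2.68. Cyp8b1, which makes cholic acid, had 0.95 ± 0.48 and -0.20 ± 0.43, neither called, with EtOH libraries at 558 to 872 CPM above the 248 to 372 CPM of Control 28D.

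Some stress response genes rose in both histories. Of 23 genes of the unfolded protein and integrated stress responses 8 rose without DDC, and 9 rose and 2 fell after it, 7 of the rises being shared. The 2 falls became 6 without DDC+EtOH replicate 43 and 0 without DDC+EtOH replicate 40 or without the libraries over 1000 pancreatic enzyme CPM. Fgf21, a stress hormone of the liver, rose by 4.26 ± 0.89 and 4.32 ± 0.80, with an interval for the difference as wide as -2.71 to 2.81. Its DDC+EtOH libraries spanned 1.32 to 87.6 CPM, with replicates 39 and 40 highest. Atf3, a stress transcription factor, stood at 2.83, 2.67, 1.91, 2.19 and 2.30 CPM in Control 28D, 3.27, 6.99, 6.82 and 7.82 CPM in EtOH and 2.68, 4.20, 2.89, 1.60 and 2.19 CPM in DDC+Cont. In DDC+EtOH replicates 39 and 40 stood at 65.8 and 163 CPM and the other 4 at 5.81 to 7.09 CPM. It rose after DDC (3.93 ± 0.68) and had 1.39 ± 0.75 without it, which was 2.70 and passed with the clock score as a term (adjusted p 0.0267 by edgeR), and the difference of 2.53 ± 1.01 has an interval of 0.48 to 4.58 (adjusted p 0.618 by edgeR). The pseudokinase Trib3 rose in both (3.39 ± 0.62 and 4.39 ± 0.60).

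For the lists that follow, the shares of all genes are 9.99% risen and 8.2% fallen without DDC and 12.4% risen and 11.2% fallen after it, and a count near or below these says nothing particular about a list. Of 15 stellate cell and myofibroblast genes 4 rose without DDC and 8 after it, 3 in both, with medians of 0.17 and 0.38. The count after DDC was 3 when DDC+Cont replicate 28 was left out. It was 5 when DDC+Cont replicate 29 or DDC+EtOH replicates 39, 40 or 41 was left out, with only the 20 libraries and with the clock score as a term. Of 19 tested cytokine and chemokine genes 2 rose without DDC, and 7 rose and 1 fell after it, and leaving out DDC+Cont replicate 28 gave 3 rises, while leaving out DDC+Cont replicate 29 or DDC+EtOH replicates 39 or 40 gave 4. The rises were 4 and 9 with the clock score as a term. Of 24 interferon response genes none rose, 1 fell without DDC and 4 fell after it, which became 7 with lane as a term and 2 when DDC+Cont replicates 28 or 29, DDC+EtOH replicate 38 or the libraries over 1000 pancreatic enzyme CPM were left out, or with the clock score as a term. The fall without DDC was lost when Control 28D replicate 12 or EtOH replicates 21 or 22 was left out or with only the 20 libraries. It became 3 falls without Control 28D replicate 10 or EtOH replicate 20 and 2 with the clock score as a term. Of 24 acute phase genes 1 rose without DDC, and 2 rose and 4 fell after it, but none fell after it with the clock score as a term. The rise without DDC was lost when Control 28D replicates 9 or 11 or EtOH replicate 23 was left out, and the median difference of 0.38 was -0.034 without Control 28D replicate 12 and -0.070 without DDC+EtOH replicate 43. No gene of any of these lists passed the test of the difference.

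Of 16 pericentral genes 4 rose and 7 fell without DDC and 5 rose and 6 fell after it, with 4 rises and 5 falls shared, and with the clock score as a term 1 rose after DDC. Of 15 periportal genes 1 rose and 4 fell without DDC and 1 rose and 1 fell after it. The 4 falls became 2 without Control 28D replicate 11 or EtOH replicate 23, and the 1 fall after DDC became 4 without DDC+EtOH replicate 39 and 0 without DDC+Cont replicate 26. Of 14 tested bile transport genes 4 rose and 3 fell without DDC and 5 rose and 3 fell after it, with 4 rises and 3 falls shared. Of 12 heme genes 2 rose without DDC, and the same 2 rose and 1 fell after it, 1 of the rises being lost when DDC+Cont replicates 24 or 25 or DDC+EtOH replicate 40 was left out. The lists of p53 targets, red blood cells, sinusoidal endothelium, lymphocytes (T and NK, and B and plasma), neutrophils and pancreatic enzymes each had between 0 and 2 members called in either direction, in either history. With any 1 library left out these counts ran from 0 to 3, except that 7 pancreatic enzymes rose after DDC without DDC+Cont replicate 24.

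Clock genes split the libraries of the joint regimen. Of 16, 4 rose and 3 fell without DDC, and 7 rose and 5 fell after it, or 2 and 1 with the clock score as a term. Arntl, the positive clock factor, stood at 47.7, 43.7, 51.2, 44.8 and 50.8 CPM in Control 28D, 30.3, 9.76, 21.9 and 22.0 CPM in EtOH and 44.0, 45.9, 51.9, 48.7 and 49.2 CPM in DDC+Cont. In DDC+EtOH replicates 38, 41 and 42 stood at 7.76 to 9.13 CPM and replicates 39, 40 and 43 at 25.7 to 35.2 CPM. Its effects were -1.19 ± 0.36 and -1.26 ± 0.31, the former lost without EtOH replicate 21 and with only the 20 libraries, the latter without the libraries over 1000 pancreatic enzyme CPM, and both with the clock score as a term. Arntl and Dbp are part of the score, so losses in this list under that fit are in part built in and are no separate result. Dbp, a clock output factor, was at 21.2 to 29.9 CPM in the former 3 and 1.47 to 2.96 CPM in the latter 3. Per1, a repressor of the clock, rose after DDC (1.71 ± 0.40) and had 0.29 ± 0.45 without it, with a difference interval of 0.19 to 2.65.

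**Figure D5:**
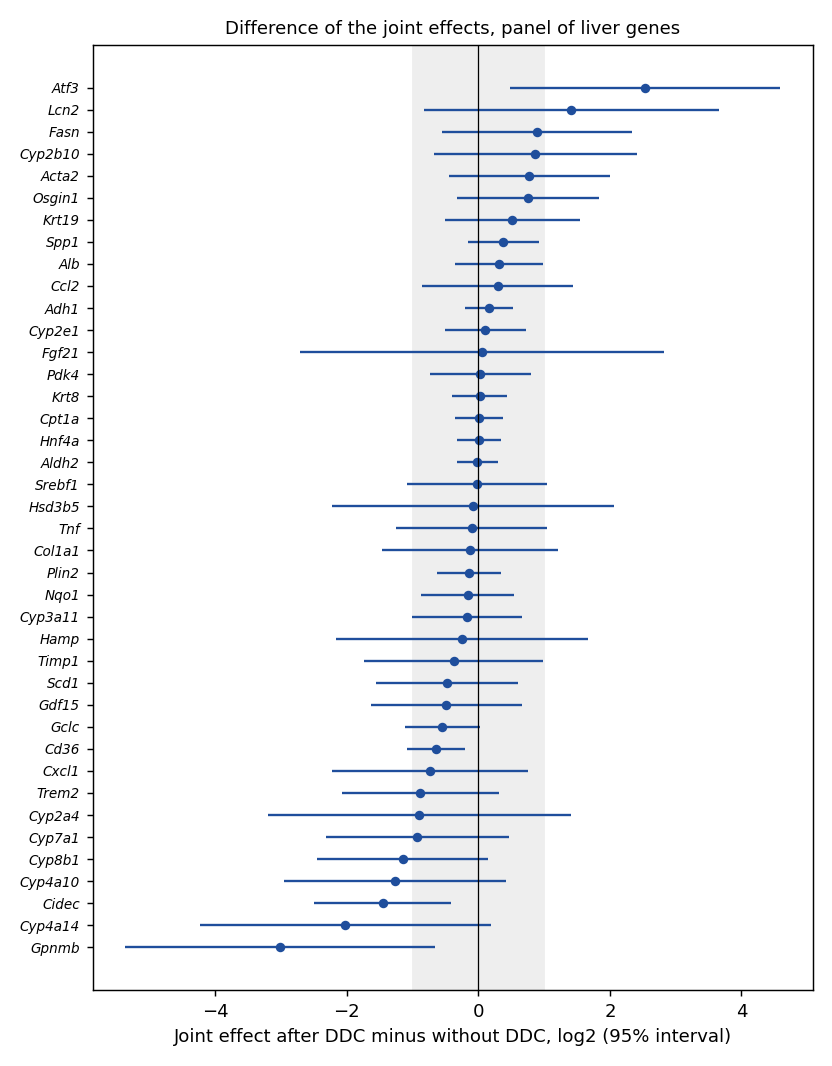
Difference of the joint effects (after DDC minus without DDC, log2) for 40 liver genes, with points for estimates, lines for 95% intervals and grey for the range of ±1 unit. For 11 genes the interval lies within ±1 unit and for 24 within ±2 units; 4 intervals leave out 0 (Atf3, Cd36, Cidec and Gpnmb), and the smallest adjusted p of the 40 is 0.521 in edgeR's quasi-likelihood test.

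Over this panel, 17 genes were called without DDC and 18 after it, and none passed the test of the difference.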

How the data were processed

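Total liver RNA was made into poly(A) libraries with a TruSeq mRNA kit, per the labels' protocols. The authors deposited 1 table of raw read counts per gene for each library, and the tools and build listed are GSNAP, DESeq2 1.12.3 and mm10, per the submitters' processing notes. Which program counted reads, on which annotation and with which strand setting, was not given in the sources consulted, so reads of overlapping or antisense genes cannot be told apart. 5 tally rows per file (reads unassigned, ambiguous or not uniquely aligned) were left out of totals and tests; reads on genes made up 43.3% to 49.7% of all reads in the 4 groups and reads not uniquely aligned 20.1% to 27.8%.

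Counts of all 40 libraries were fitted with edgeR 4.0.16 (TMM scaling, low-count filter by group keeping 14355 of 24499 genes, robust quasi-likelihood, 1 coefficient per group) in R 4.3.3 with limma 3.58.1. Tests are two-sided, with Benjamini-Hochberg adjustment over all genes tested, a threshold of 0.05 and 95% intervals. All groups share 1 estimate of the spread. DESeq2 1.42.0, RLE scaling, other filters, lane as a term, non-robust estimation, only the 20 libraries, leaving out libraries over 1000 pancreatic enzyme CPM, and each library left out were alternatives; a fit with the clock score as a term was added after seeing the data. The fit was also run on simulated data, but the outcome is not reported here and no result rests on it. No libraries of a group differed by less than sampling noise (lowest chi-square per degree of freedom 8.56). Coordinates come from GENCODE vM21 (GRCm38/mm10), which held 23680 of the 24499 symbols.

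Genes are named by a rule: the 10 differences of smallest p in each direction with at least 5 CPM in 1 group (called ones first), the 5 largest called effects in each direction, up to 4 members of smallest p per list, and a panel of 40 genes. The largest called effects were sought only where the compared groups were fully separated, and predicted and Mup genes were passed over. For genes named that way, a lack of overlap was a condition of the choice and is no separate result. Arntl, Col4a1, Dbp, Mmp12, Mogat1, Slco1a1, Sox9, Trib3 and the fat cell genes are further list members, chosen after their values were seen. The members and the 35 gene lists were chosen with earlier results of these data known.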

Additional observations from a re-analysis of the deposited data

Results flagged for a closer look

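Within groups, 38 of 388 sets of library values had a highest or lowest library that stood apart by Dixon's criterion. For normally distributed values chance flags about 1 in 20. Most sets were CPM without log transformation, some near 0, so that rate need not hold and the count shows no excess. Control 28D replicate 12 had the most, with 7. Control 28D replicate 9 was lowest of its group for Mtmr14 (16.2 CPM against 19.7 to 21.0). Control 28D replicate 11 was highest of its group for Cyp2b13 (0.116 CPM against 0). Control 28D replicate 12 was highest of its group for Rdh9 (65.2 CPM against 34.9 to 42.8), Cyp2a5 (585 CPM against 299 to 352), Cyp3a11 (5502 CPM against 1778 to 2188), Plin4 (31.4 CPM against 17.7 to 21.6), Lcn2 (493 CPM against 55.0 to 147) and the pancreatic enzyme sum (12.8 CPM against 1.22 to 2.37). Control 28D replicate 12 was lowest of its group for Fasn (629.9 CPM against 3428 to 4195). Control 28D replicate 13 was highest of its group for Rpl36al (4559.6 CPM against 119 to 142) and Sox9 (7.90 CPM against 4.05 to 4.74). EtOH replicate 20 was highest of its group for Cyp8b1 (872 CPM against 558 to 584). EtOH replicate 21 was highest of its group for Adh1 (2843 CPM against 2421 to 2423), Dbp (32.5 CPM against 5.45 to 8.80) and the pancreatic enzyme sum (49.2 CPM against 0.147 to 4.36). EtOH replicate 21 was lowest of its group for Mogat1 (1.54 CPM against 2.95 to 3.12) and the clock score (-1.84 against 0.224 to 0.313). EtOH replicate 23 was highest of its group for Slc7a11 (121 CPM against 6.39 to 23.1). DDC+Cont replicate 24 was highest of its group for the pancreatic enzyme sum (2667 CPM against 0.656 to 17.8). DDC+Cont replicate 24 was lowest of its group for the clock score (2.02 against 2.20 to 2.27). DDC+Cont replicate 25 was lowest of its group for Cbr3 (0.554 CPM against 1.09 to 1.28). DDC+Cont replicate 26 was highest of its group for Adgrf1 (20.0 CPM against 7.75 to 9.69) and Tff3 (97.4 CPM against 4.44 to 9.32). DDC+Cont replicate 26 was lowest of its group for Plin2 (440.0 CPM against 532 to 559). DDC+Cont replicate 28 was highest of its group for Cyp2b13 (0.219 CPM against 0 to 0.0462), Cyp2b9 (18.6 CPM against 0.0688 to 1.38), Cyp2a4 (7.58 CPM against 1.10 to 2.48) and Cyp4a14 (208 CPM against 23.8 to 71.4). DDC+Cont replicate 28 was lowest of its group for Trib3 (1.60 CPM against 2.10 to 2.13). DDC+EtOH replicate 38 was highest of its group for Gsta1 (119.6 CPM against 36.6 to 66.4), Cyp7a1 (131 CPM against 21.7 to 50.6) and the pancreatic enzyme sum (7578 CPM against 0 to 1871). DDC+EtOH replicate 39 was highest of its group for Cyp4a14 (509 CPM against 39.7 to 169.6), Adipoq (3.74 CPM against 0 to 0.189) and Cfd (18.6 CPM against 0 to 0.787). DDC+EtOH replicate 42 was highest of its group for Hsd3b5 (1.17 CPM against 0 to 0.144), Serpina4-ps1 (22.2 CPM against 0 to 3.02) and Scd1 (9006 CPM against 1369.9 to 3504).

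Kit is given for another reason, that its joint effect differed between the histories by a test of the difference itself (1.27 on the log2 scale, adjusted p 0.0170 in edgeR's quasi-likelihood test with Benjamini-Hochberg adjustment). Its values by library stand above. For none of these values was a cause tested.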

How the results depend on the processing

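The number of genes with a called difference was 0 with sequencing lane as a term (1081 at an unadjusted p under 0.05) and 0 with only the 20 libraries (830), in both cases with 0 positive, by edgeR's quasi-likelihood test. DESeq2 called 11, of which 5 were positive (Kit, Rdh9, Fmn1, Plce1 and Map3k13) and 6 negative (Raet1d, St6galnac6, Wrnip1, Golph3l, Ing4 and Fndc5). Without libraries over 1000 pancreatic enzyme CPM 2 were called, Kit and 1 negative, Raet1d. With 1 library left out, 0 to 3 were called, 0 to 2 of them positive and 0 to 1 negative, and Kit was lost without Control 28D replicate 13 or EtOH replicate 20. Leaving out libraries gave 1963 to 2774 calls for the joint effect without DDC and 2851 to 3551 after DDC. The correlation of the joint effects was 0.699 to 0.784 with a library left out and 0.392 without the low-count filter.

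With the clock score as a term, added after seeing the data, the sign turned among named and called effects for the joint effect after DDC of Adh1 (-0.043), Per2 (-1.26), Per3 (-0.18) and Dbp (-0.36), and for that without DDC of Per3 (-0.83). Per2, Per3 and Dbp are clock genes, and Per3 and Dbp enter the score, as does Arntl, so their shifts under this fit are in part built in. Uncalled effects turned too, that of Kit after DDC among them (-0.15). For Adh1, Per2 and Kit the cause was not tested. Depth limits genes of few reads: Kit rests on 60 to 234 reads per library. No paired analysis was possible because every animal number occurs once and the groups share none.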
